A study of Mus musculus with 2 samples.

Results

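The Schlafen genes are a family of 7 members in these data (Slfn1, Slfn2, Slfn3, Slfn4, Slfn5, Slfn8 and Slfn9), taken by symbol from the 31253 genes of the deposited matrices. All 7 had at least 1 UMI (unique molecular identifier, the tag that marks one captured RNA molecule) in each library. The cells were immune cells sorted from mouse gliomas as alive, CD45.2-positive and CD45.1-negative, which the labels call endogenous. They were profiled with BD Rhapsody, which pairs each cell with a barcoded bead in a small well. The series concerns macrophages given to animals with glioblastoma. There was 1 library from tumours treated with EM, whose title gives 72 h, and 1 library from tumours treated with PBS, whose labels give no time. What EM stands for is not given in the labels, and they give neither the strain and age of the animals nor how many were pooled. With 1 library per group no difference between EM and PBS can be tested, and every interval below covers counting error only.

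Schlafen proteins are known from mice as regulators of immune cell growth, and the name comes from the German word for sleeping, after the arrest of thymocytes that carried extra Slfn1. The short forms, Slfn1 and Slfn2, hold only the core domain of the family, and mouse T cells and monocytes with a mutant Slfn2 lose their resting state. The intermediate forms, Slfn3 and Slfn4, carry a further domain, and Slfn4 has been described in mouse macrophages and in myeloid cells that suppress T cells. The long forms, Slfn5, Slfn8 and Slfn9, add a helicase-like part, and Slfn5 is known as a nuclear protein. Several members are known to be induced by type I interferon, the cytokine family of the antiviral response.

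The members lie side by side on mouse chromosome 11 (GRCm38, the assembly also called mm10), within 263.8 kb. In order they are Slfn5 (82951349 to 82964840, plus strand), Slfn9 (82978390 to 82991830, minus strand), Slfn8 (83002158 to 83020810, minus strand), Slfn2 (83065112 to 83070678, plus strand), Slfn1 (83116849 to 83122670, plus strand), Slfn4 (83175186 to 83190216, plus strand) and Slfn3 (83191330 to 83215154, plus strand). All 7 are annotated as protein coding. The promoter windows (250 bases before to 50 after the start, RefSeq, GRCm38.p6) were searched on both strands for the core of the interferon-stimulated response element, GAAANNGAA with its reverse TTCNNTTTC, and for the GAS element, TTCNNNGAA. The response element core was found in 3 of the 7 genes, in Slfn5, Slfn8 and Slfn9, which are the long forms. Over all genes, 9.76% of 27025 genes and 8.56% of their 32851 such windows hold it. The GAS letters were found in none of the members' windows and in 8.3% of all windows, so the motifs had no overlap to count here. A match is a description of these letters and not a site. The windows of the 3 genes with a match are shown with the matched letters in capitals. They are chr11:82951852-82952151 on the plus strand for Slfn5, chr11:83020761-83021060 on the minus strand for Slfn8 and chr11:82991781-82992080 on the minus strand for Slfn9. The window of Slfn4, the member with the largest difference between EM and PBS monocytes, is chr11:83174936-83175235 on the plus strand and has no match.
Slfn5: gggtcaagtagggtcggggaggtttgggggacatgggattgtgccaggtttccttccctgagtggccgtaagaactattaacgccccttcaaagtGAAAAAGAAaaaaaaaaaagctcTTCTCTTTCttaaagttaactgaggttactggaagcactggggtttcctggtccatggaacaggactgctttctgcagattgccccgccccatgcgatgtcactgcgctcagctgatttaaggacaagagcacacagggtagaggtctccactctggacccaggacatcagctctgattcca
Slfn8: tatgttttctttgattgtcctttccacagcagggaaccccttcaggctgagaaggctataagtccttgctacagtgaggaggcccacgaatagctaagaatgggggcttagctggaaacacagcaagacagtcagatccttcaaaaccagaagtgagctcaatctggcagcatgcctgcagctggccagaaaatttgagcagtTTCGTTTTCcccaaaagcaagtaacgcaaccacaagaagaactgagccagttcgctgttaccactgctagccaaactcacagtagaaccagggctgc
Slfn9: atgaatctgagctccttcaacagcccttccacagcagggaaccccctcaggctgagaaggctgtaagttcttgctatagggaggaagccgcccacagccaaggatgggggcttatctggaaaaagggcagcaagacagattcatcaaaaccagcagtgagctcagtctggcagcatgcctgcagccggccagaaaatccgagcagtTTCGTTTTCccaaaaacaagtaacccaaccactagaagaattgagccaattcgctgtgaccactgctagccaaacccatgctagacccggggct
Slfn4: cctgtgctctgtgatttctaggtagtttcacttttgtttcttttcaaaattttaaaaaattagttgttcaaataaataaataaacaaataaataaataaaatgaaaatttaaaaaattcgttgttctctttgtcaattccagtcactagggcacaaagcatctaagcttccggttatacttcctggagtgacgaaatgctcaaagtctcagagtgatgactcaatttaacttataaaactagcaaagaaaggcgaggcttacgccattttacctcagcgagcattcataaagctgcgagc
In Slfn5 the matches begin at positions -155 and -132 from the RefSeq start, in Slfn8 at -47 and in Slfn9 at -44. The Slfn5 window lies inside the span of the gene given above, which is from GENCODE and starts further upstream. Its matches are thus upstream of the RefSeq start only. The matches in Slfn8 and Slfn9 have the same 9 letters, TTCGTTTTC. Slfn8 has a second RefSeq window that overlaps the first and holds the same match.

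**Figure D1:**
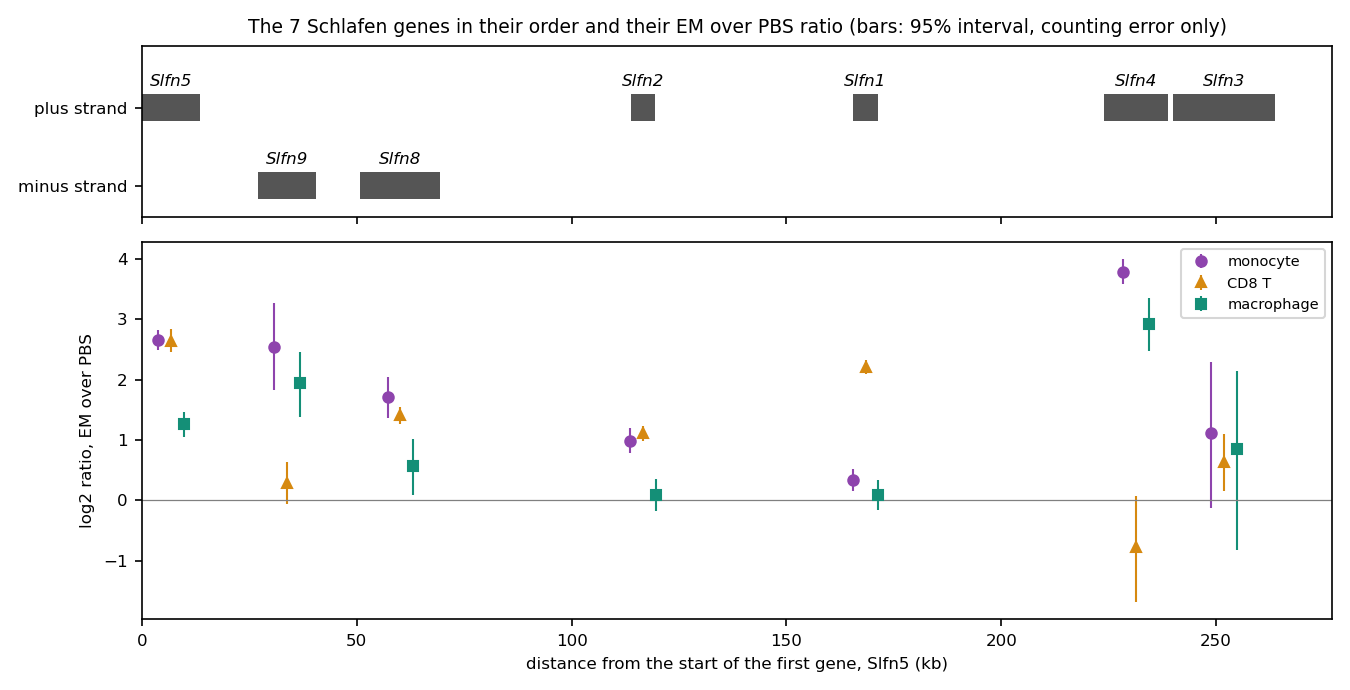
Upper panel: the 7 Schlafen genes along chromosome 11 by strand, in kb from the start of Slfn5. Lower panel: log2 ratio of the level in EM over PBS for each gene in monocytes, CD8 T cells and macrophages, with 95% counting intervals. Slfn4 has a ratio of 3.79 in monocytes and -0.77 in CD8 T cells, while Slfn1 has 0.34 in monocytes and 2.22 in CD8 T cells.

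Members of a gene family can share reads. Of the 75-base stretches in the last 500 bases of the longest transcript, 7.3% of those of Slfn3 also occur in Slfn4, and none of those of the other 6 members occur in another Schlafen transcript. Over whole transcripts 7.5% of the stretches of Slfn8 and 6.1% of those of Slfn9 occur in another member or in Slfn10-ps. Counts of Slfn3, the member with the fewest UMIs, are therefore uncertain beside the high counts of Slfn4.

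The filter required 200 genes and 500 UMIs per cell, with a mitochondrial share no higher than 20%, and left 7967 cells in EM (19302929 UMIs, median 2016 per cell) and 7756 in PBS (43538431 UMIs, median 4303). The libraries shared 66 cell barcodes. A gate on marker genes placed 95.4% of the EM cells and 92.2% of the PBS cells in a class. Levels are given in CPM, the UMIs of a gene per 1e6 UMIs of the class. Cd3e, Ncr1 and P2ry12 are among the markers of the gate, so their levels in its classes are no check of it. Cd3e was at 1180 CPM in EM CD8 T cells and at 873 CPM in PBS CD8 T cells. Ncr1 was at 395 and 290 CPM in EM and PBS NK cells, and P2ry12 at 965 and 714 CPM in EM and PBS microglia. Neutrophils numbered 1 in EM and 679 in PBS, and plasmacytoid dendritic cells 187 in EM and 6 in PBS, so neither class could be compared. Macrophages were far shallower in EM, with a median of 844.5 UMIs against 10080.5 in PBS. Xist, transcribed in female cells, was at 384 CPM in EM and 10.6 CPM in PBS, and Ddx3y of the Y chromosome at 4.46 CPM in EM and 192 CPM in PBS, so the sex of the animals and the treatment cannot be told apart. The 12 markers of brain, vessel and connective tissue cells summed to at most 278 CPM in EM and at most 257 CPM in PBS in the 9 classes compared.

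The members tended to stand lower in lymphoid cells (T, NK, B and plasma cells) than in myeloid cells (monocytes, macrophages, microglia, dendritic cells, granulocytes and mast cells), and no member stood at least 2-fold higher in lymphoid cells of either library. In EM, Slfn4, Slfn5 and Slfn9 were at least 2-fold lower in lymphoid cells. In PBS, Slfn1, Slfn2, Slfn4 and Slfn5 were. Over all genes with at least 20 UMIs, 20.9% were higher in lymphoid cells by that limit and 15.6% lower in EM, and 24.3% higher and 20.2% lower in PBS. The median log2 ratio of lymphoid over myeloid over the 7 members was -0.71 in EM and -1.41 in PBS, beside 0.32 and 0.33 over all genes tested in EM and PBS.

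Slfn4 had the lowest lymphoid over myeloid ratio of the 7 in both libraries. Lymphoid cells held 5.29 CPM in EM against 411 CPM in EM myeloid cells, a log2 ratio of -6.28 (-6.63 to -5.95), and 4.34 CPM in PBS against 283 CPM in PBS myeloid cells, a log2 ratio of -6.03 (-6.33 to -5.74). The cells behind the myeloid value differed between the libraries. In EM, 77.2% of all Slfn4 UMIs came from monocytes, which held 2.9% of the library's UMIs. In PBS, 84.6% came from neutrophils, which held 2.5% of the library's UMIs. Without neutrophils the PBS ratio was -2.46, and the EM ratio stayed at -6.28. Leaving out neutrophils, an alternative chosen after seeing the data, also moved the PBS ratios of Slfn1 to -1.84, Slfn2 to -1.21 and Slfn5 to -2.39, and the same 4 members stayed at least 2-fold lower. Over the other alternatives the Slfn4 ratio in EM ran from -7.03, with a stricter gate, to -5.81, with every cell weighted equally. In PBS it ran from -7.73, with every cell weighted equally, to -5.60, in classes built from Leiden clusters.

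Slfn5 stood at 176 CPM in EM lymphoid and 727 CPM in EM myeloid cells, a log2 ratio of -2.05 (-2.13 to -1.96), which was -1.35 with every cell weighted equally. In PBS it stood at 29.3 CPM in lymphoid and 189 CPM in myeloid cells, a log2 ratio of -2.69 (-2.81 to -2.57). Slfn1 was split by library. Its lymphoid and myeloid levels in EM were 235 and 220 CPM (log2 ratio 0.09, -0.03 to 0.22), and those in PBS were 60.1 and 264 CPM (-2.13, -2.22 to -2.05). Its myeloid level was thus closer between the libraries than its lymphoid level. Slfn2 stood at 168 CPM in lymphoid and 274 CPM in myeloid cells of EM (-0.71) and at 83.6 and 222 CPM in lymphoid and myeloid cells of PBS (-1.41). Slfn8 stayed close to even, with 123 and 99.5 CPM in lymphoid and myeloid cells of EM (0.31, 0.12 to 0.49) and 49.2 and 58.8 CPM in those of PBS (-0.26, -0.38 to -0.14). Slfn9 stood at 18.0 and 40.2 CPM in EM lymphoid and myeloid cells (-1.16, but -0.94 in classes built from Leiden clusters and -0.98 with cells thinned to 1000 UMIs, which leaves out shallower cells), and at 13.4 and 14.3 CPM in PBS lymphoid and myeloid cells (-0.09). Slfn3 had few UMIs, with a log2 ratio of -0.20 in both libraries.

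**Figure D2:**
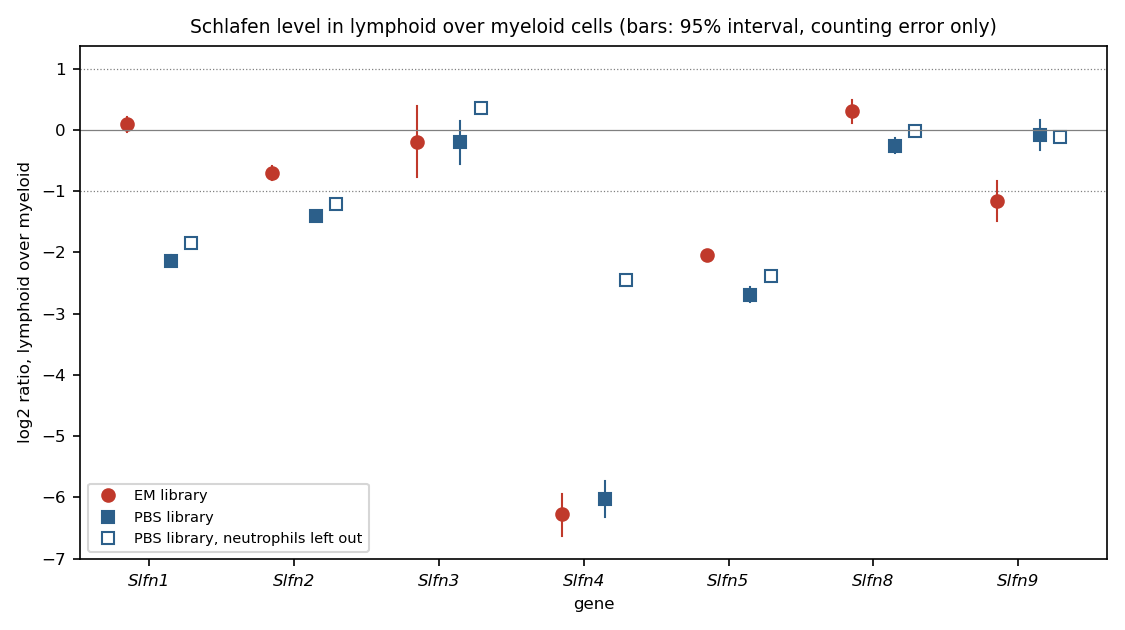
Log2 ratio of the level in lymphoid over myeloid cells for each Schlafen gene, in the EM library (circles) and the PBS library (squares), with 95% counting intervals; open squares leave out PBS neutrophils, and dotted lines mark a 2-fold ratio. Slfn4 sits at -6.28 in EM and -6.03 in PBS, and at -2.46 in PBS once neutrophils are left out.

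Among the short forms, Slfn1 separated T cells from the other lymphocytes. In EM it stood at 573 CPM in monocytes, 309 in CD4 T cells, 257 in CD8 T cells, 250 in regulatory T cells, 214 in macrophages and 147 in dendritic cells. NK cells followed at 23.0 CPM, with microglia at 20.2, B cells at 13.3 and plasmacytoid dendritic cells at 10.1. In PBS the order was neutrophils (1012 CPM), monocytes (453), macrophages (201), dendritic cells (152), CD4 T cells (121), regulatory T cells (112) and CD8 T cells (55.3), with eosinophil-like cells at 52.6, microglia at 16.6, B cells at 15.6 and NK cells at 8.15. NK cells, the other cytotoxic lymphocytes, thus stood below each T cell class in both libraries, and their counting intervals did not overlap those of the T cells. The intervals of CD8 and regulatory T cells overlapped in EM, as did those of CD4 and regulatory T cells in PBS. Cells with a Slfn1 UMI made up 22.3% of EM CD8 T cells and 5.93% of PBS CD8 T cells after thinning cells to 1000 UMIs and leaving out shallower ones (47 EM and 44 PBS CD8 T cells, 24 EM and 22 PBS NK cells), against 2.08% of EM NK cells and 1.48% of PBS NK cells. Without thinning these shares were 40.5% and 20.6% in EM and PBS CD8 T cells (median 2207 and 4613 UMIs), and 4.33% and 2.4% in EM and PBS NK cells (median 2115 and 2582.5 UMIs).

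Slfn2, whose mutation in mice ends the resting state of T cells and monocytes, was found in every class of at least 50 cells. In EM it ran from 576 CPM in monocytes through 257 in dendritic cells, 223 in CD4 T cells, 195 in macrophages, 183 in regulatory T cells, 159 in CD8 T cells, 136 in microglia and 112 in NK cells to 88.4 in B cells and 63.7 in plasmacytoid dendritic cells. From dendritic cells down each interval overlapped that of its neighbour in this order. In PBS it ran from 658 CPM in neutrophils through 290 in monocytes, 183 in macrophages, 181 in microglia, 149 in CD4 T cells, 126 in dendritic cells, 113 in regulatory T cells, 102 in B cells and 87.6 in NK cells to 73.7 in CD8 T cells. PBS plasma cells stood apart at 8.21 CPM (4 UMIs in 60 cells). Eosinophil-like cells held 618 CPM in PBS (77 cells), and only 16 such cells were gated in EM.

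Of the intermediate forms, Slfn4 stood at 1792 CPM in EM monocytes against 130 CPM in PBS monocytes, and at 4288 CPM in PBS neutrophils. EM macrophages held 92.7 CPM and PBS macrophages 12.2 CPM, and dendritic cells 53.3 CPM in EM and 1.37 CPM in PBS. No Slfn4 UMI was found in microglia, in 0 of 159 EM cells, for which 3 counts set a limit of 15.2 CPM and 1.89% of cells with a UMI at a median of 897 UMIs, or in 0 of 112 PBS cells, with a limit of 3.33 CPM and 2.68% at a median of 7643 UMIs. T cells held 5.74 CPM in EM and 4.43 CPM in PBS. After thinning to 1000 UMIs, which left out 14 EM and 13 PBS monocytes and 182 EM and 110 PBS T cells, 53.0% of EM monocytes and 9.36% of PBS monocytes had a Slfn4 UMI, against 0.427% of EM T cells and 0.499% of PBS T cells. The unthinned shares were 65.0% and 23.1% in EM and PBS monocytes (median 3052.5 and 5294.5 UMIs) and 0.88% and 1.67% in EM and PBS T cells (median 2055 and 4375.5 UMIs). In positive cells the gene was abundant: EM monocytes carried 8.56 Slfn4 UMIs per positive cell and PBS monocytes 3.36, and 72 of 180 EM monocytes against 13 of 312 PBS monocytes held at least 5.

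In some other classes a few cells carried most of the Slfn4 UMIs. Of the 59 UMIs of EM macrophages, 22 lay in 1 cell, and 4 of 580 EM macrophages held at least 5. Of the 39 UMIs of EM regulatory T cells, 21 lay in 1 cell. In EM dendritic cells 13 of 49 UMIs lay in 1 cell. Slfn3, the neighbour of Slfn4 on the chromosome, was low in every class, from 3.35 to 19.7 CPM in EM and from 3.33 to 43.3 CPM in PBS among classes of at least 50 cells with a UMI. Its highest class was the PBS neutrophil (43.3 CPM, 48 UMIs), where Slfn4 was highest too.

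Among the long forms, Slfn5 had its highest EM level in monocytes (1582 CPM), followed by dendritic cells (869), plasmacytoid dendritic cells (397), macrophages (342), CD4 T cells (313), microglia (253), B cells (221), regulatory T cells (202), CD8 T cells (122) and NK cells (90.1). In PBS the order was neutrophils (737), monocytes (252), microglia (178), macrophages (143), regulatory T cells (113), dendritic cells (82.4), CD4 T cells (65.3), B cells (54.7), NK cells (38.7) and CD8 T cells (19.5). From PBS macrophages down to PBS NK cells each interval overlapped that of its neighbour, and the intervals of NK and CD8 T cells did not. Among T cells the CD8 cells were lowest in both libraries. Slfn8 was detected in lymphoid and myeloid classes alike. Its EM levels ran from 261 CPM in monocytes to 35.4 CPM in microglia with every neighbouring pair from CD4 T cells down overlapping in their intervals, and PBS levels from 202 CPM in neutrophils to 12.4 CPM in dendritic cells and 4.11 CPM in plasma cells. Slfn9 had its highest EM levels in monocytes (84.1 CPM) and macrophages (56.6 CPM), where PBS held 14.5 and 14.7 CPM. Its highest PBS levels were in plasma cells (26.7 CPM, 13 UMIs), regulatory T cells (25.4, 15 UMIs) and microglia (21.1, 19 UMIs). Each interval overlapped that of its neighbour in this PBS order.

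**Figure D3:**
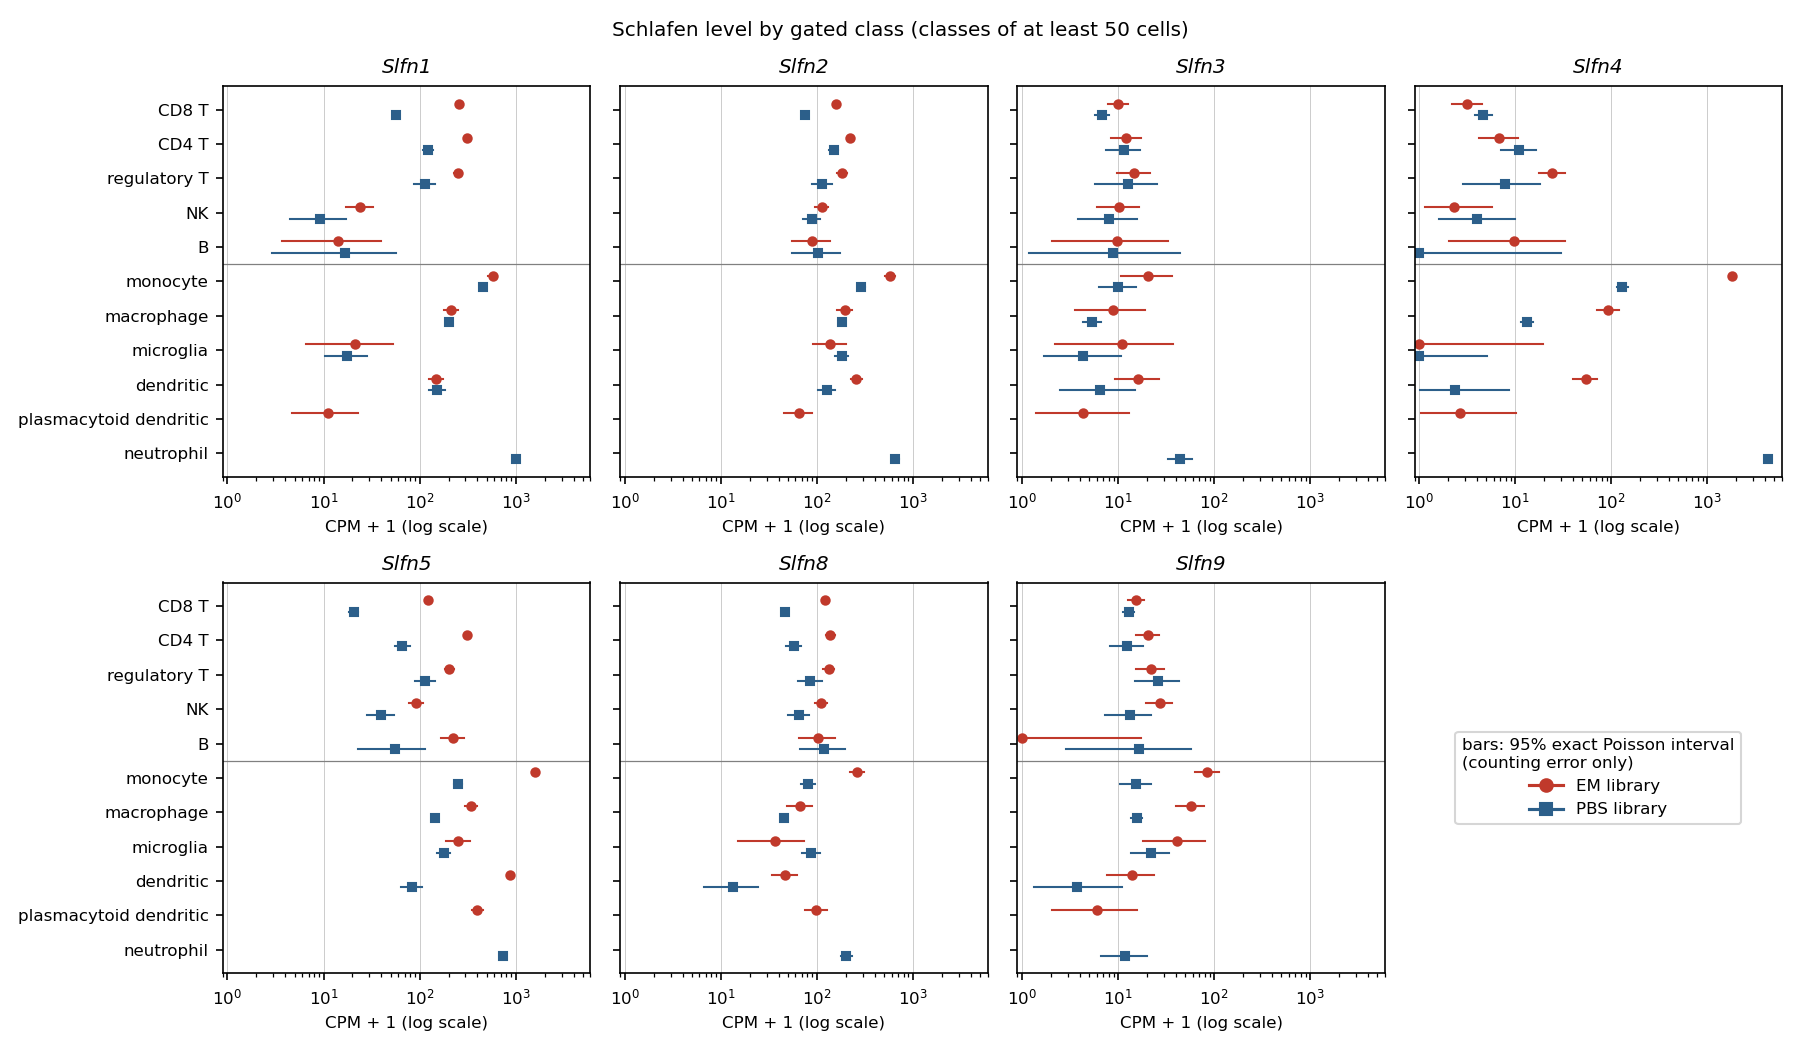
Level of each Schlafen gene (CPM + 1, log axis) in gated classes of at least 50 cells, EM as circles above PBS as squares, with 95% exact Poisson intervals. Plasma cells, eosinophil-like cells, and basophils and mast cells are not drawn. The grey line parts lymphoid classes above from myeloid and plasmacytoid classes below. Slfn4 spans from 0 in microglia to 1792 CPM in EM monocytes and 4288 CPM in PBS neutrophils.

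EM was then set over PBS within each of the 9 classes that reached 50 cells in both libraries. In monocytes Slfn4 and the long forms were higher in EM. The monocyte classes of the libraries were not alike in their markers. Ly6c2 stood at 4702 CPM in EM and 924 CPM in PBS, Lyz2 at 13723 and 4918 CPM, and C1qa, a macrophage marker, at 21.5 and 281 CPM. The part of this difference in the ratios was not tested. Slfn4 stood at 1792 CPM in EM and 130 CPM in PBS, a log2 ratio of 3.79 (3.58 to 4.0), Slfn5 at 1582 and 252 CPM in EM and PBS (2.65, 2.49 to 2.81), Slfn9 at 84.1 and 14.5 CPM (2.54, 1.83 to 3.28) and Slfn8 at 261 and 79.9 CPM (1.71, 1.37 to 2.05). Slfn3 also passed the limit at 1.11, on 28 UMIs and with an interval that includes 0 (-0.13 to 2.29), and at 1000 UMIs per cell it was -0.74. It was 0.95 both under median-of-ratios scaling and under the stricter filter on cells, and 1.83 with a gate that leaves out interferon-induced markers. Slfn9 was at 1.55 under that thinning. Slfn2 at 576 and 290 CPM in EM and PBS (0.99, 0.79 to 1.19) and Slfn1 at 573 and 453 CPM (0.34) stayed within 2-fold, though Slfn2 was past it at 1.07 with a stricter gate and at 1.23 with the gate that leaves out interferon-induced markers. So 5 of 7 members were higher and 0 lower, beside 7.77% and 23.8% of all 8151 genes tested.

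Some genes that mark the monocyte class are themselves known to be induced by interferon. With Bst2, Ly6c2 and Ms4a4c dropped from the gate, an alternative chosen after seeing the data, Slfn4 had a log2 ratio of 4.47. With every cell weighted equally it was 2.84 and with cells thinned to 1000 UMIs it was 3.07. Thinned shares moved as the levels did, with 65.7% of EM and 19.7% of PBS monocytes carrying a Slfn5 UMI and 20.5% and 8.03% a Slfn8 UMI.

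In macrophages, Slfn4 (2.92, 2.47 to 3.36), Slfn9 (1.94, 1.39 to 2.46) and Slfn5 (1.26, 1.05 to 1.46) were higher in EM, 3 of 7 members with 0 lower, beside 12.6% and 19.4% of all genes. Slfn1 (214 CPM in EM and 201 CPM in PBS) and Slfn2 (195 and 183 CPM) both had a log2 ratio of 0.09. In classes built from Leiden clusters, groups of cells alike over many genes, the macrophage ratio was 0.26 for Slfn4 and 0.79 for Slfn5, and with equal weight per cell it was 0.65 for Slfn4. At 1000 UMIs per cell, which left 217 of 580 EM macrophages and 1268 of 1348 PBS macrophages, it was 2.11 for Slfn4 and 1.22 for Slfn9, and Slfn4 was at 3.83 under a stricter filter on cells and at 2.33 with likely doublets removed. Relative to T cells, macrophages held T cell markers at 2.35% in EM and 0.717% in PBS. Ly6c2, a monocyte marker, stood at 459 CPM in EM and 75.5 CPM in PBS macrophages. Lyz2 stood at 5505 and 5511 CPM and C1qa at 2149 and 1552 CPM in EM and PBS macrophages. The part of these differences in the ratios was not tested.

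Dendritic cells, the antigen-presenting cells of the myeloid lineage, had the largest Slfn5 ratio of the 9 classes, 869 CPM in EM and 82.4 CPM in PBS, a log2 ratio of 3.40 (3.02 to 3.80). Slfn4 had 49 UMIs in EM and 1 UMI in PBS (5.28, 2.73 to 10.61), Slfn8 stood at 45.7 and 12.4 CPM in EM and PBS (1.89, 0.83 to 3.11), and Slfn2 at 257 and 126 CPM (1.02, 0.67 to 1.39). That made 4 of 5 tested members higher and 0 lower, beside 7.25% and 8.76% of all genes. At 1000 UMIs per cell Slfn4 was at 1.11, Slfn2 at 0.93 and Slfn8 at -0.097. With Leiden classes Slfn4 was at 1.73 and Slfn2 at 0.73. A stricter gate put Slfn2 at 0.85 and Slfn8 at 3.68, and removing likely doublets put Slfn2 at 0.98. Slfn1 stood at 147 CPM in EM and 152 CPM in PBS (-0.05, -0.43 to 0.32). The dendritic classes of the libraries were also not alike in their markers. Flt3, a dendritic marker, stood at 521 CPM in EM and 286 CPM in PBS. Ly6c2 stood at 470 and 27.5 CPM and Lyz2 at 84.9 and 64.5 CPM in EM and PBS dendritic cells. The part of this difference in the ratios was not tested.

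In microglia, the resident macrophages of the brain, 0 of 4 tested members were higher and 1 was lower, beside 10.5% and 26.2% of all genes. Slfn5 stood at 253 CPM in EM and 178 CPM in PBS (0.50, 0.01 to 0.97). Slfn8 was lower in EM, at 35.4 CPM (7 UMIs in 159 cells) against 86.5 CPM in PBS (78 UMIs in 112 cells), a log2 ratio of -1.29 (-2.65 to -0.18). With equal weight per cell it was -0.96, with a stricter gate -2.01 and with a stricter filter on cells -2.15. The median depth of microglia was 897 UMIs in EM and 7643 in PBS.

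In T cells the short form Slfn1 stood beside Slfn5 and Slfn8 among the members higher in EM. In CD8 T cells Slfn5 stood at 122 CPM in EM and 19.5 CPM in PBS (log2 ratio 2.65, 2.46 to 2.84), and Slfn1 at 257 and 55.3 CPM in EM and PBS (2.22, 2.10 to 2.33). Slfn8 stood at 120 and 45.4 CPM (1.41, 1.26 to 1.55) and Slfn2 at 159 and 73.7 CPM (1.11, 0.99 to 1.23). Slfn9 (0.29), Slfn3 (0.64) and Slfn4 (-0.77, -1.69 to 0.06) stayed within 2-fold. The count was 4 of 7 higher and 0 lower, beside 4.03% and 13.6% of all 12268 genes tested. In CD4 T cells Slfn5 (2.26), Slfn1 (1.35) and Slfn8 (1.28) were higher and Slfn2 (0.58) was not, 3 of 7 with 0 lower, beside 4.58% and 7.03% of all genes. With Leiden classes Slfn8 was at 0.97 there. In regulatory T cells Slfn1 (1.16, 0.79 to 1.56) and Slfn4 (1.78) passed the limit, 2 of 7 with 0 lower, beside 6.57% and 5.9% of all genes. Of the 39 Slfn4 UMIs there, 21 lie in the single cell named above, and at 1000 UMIs per cell the ratio was -0.10 for Slfn4 and 0.97 for Slfn1. Slfn4 was also under the limit with a stricter gate (0.22), Leiden classes (0.72), equal weight per cell (0.83) and doublets removed (0.57). Slfn5 stood at 202 CPM in EM and 113 CPM in PBS regulatory T cells (0.83, 0.45 to 1.23).

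Set side by side, Slfn1 had log2 ratios of 2.22, 1.35 and 1.16 in CD8, CD4 and regulatory T cells and of 0.34, 0.09 and -0.05 in monocytes, macrophages and dendritic cells. Slfn4 had ratios of 3.79, 2.92 and 5.28 in monocytes, macrophages and dendritic cells and of -0.77, -0.77 and 1.78 in CD8, CD4 and regulatory T cells. Its macrophage value was 0.26 with Leiden classes, its dendritic value 1.11 and its regulatory T cell value -0.10 at 1000 UMIs per cell. Slfn5 was past 2-fold in 7 of the 9 classes. These differences between classes were not tested.

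In NK cells Slfn1 (1.5, 0.36 to 2.82, on 43 UMIs), Slfn5 (1.22, 0.69 to 1.78) and Slfn9 (1.11, 0.15 to 2.17) passed the limit, 3 of 6 with 0 lower, beside 5.08% and 8.5% of all genes. With Leiden classes Slfn5 was at 0.76 and Slfn9 at 0.62, with doublets removed Slfn5 was at 0.96, with a stricter gate Slfn9 was at 0.87, and at 1000 UMIs per cell Slfn1 was at 0.49. In B cells (100 in EM and 53 in PBS) Slfn5 was higher, at 221 CPM in EM and 54.7 CPM in PBS (2.01, 0.87 to 3.40, and 1.35 at 1000 UMIs per cell), 1 of 3 with 0 lower, beside 9.23% and 14% of all genes. Slfn2 (-0.20) and Slfn8 (-0.21) were close to even there.

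**Figure D4:**
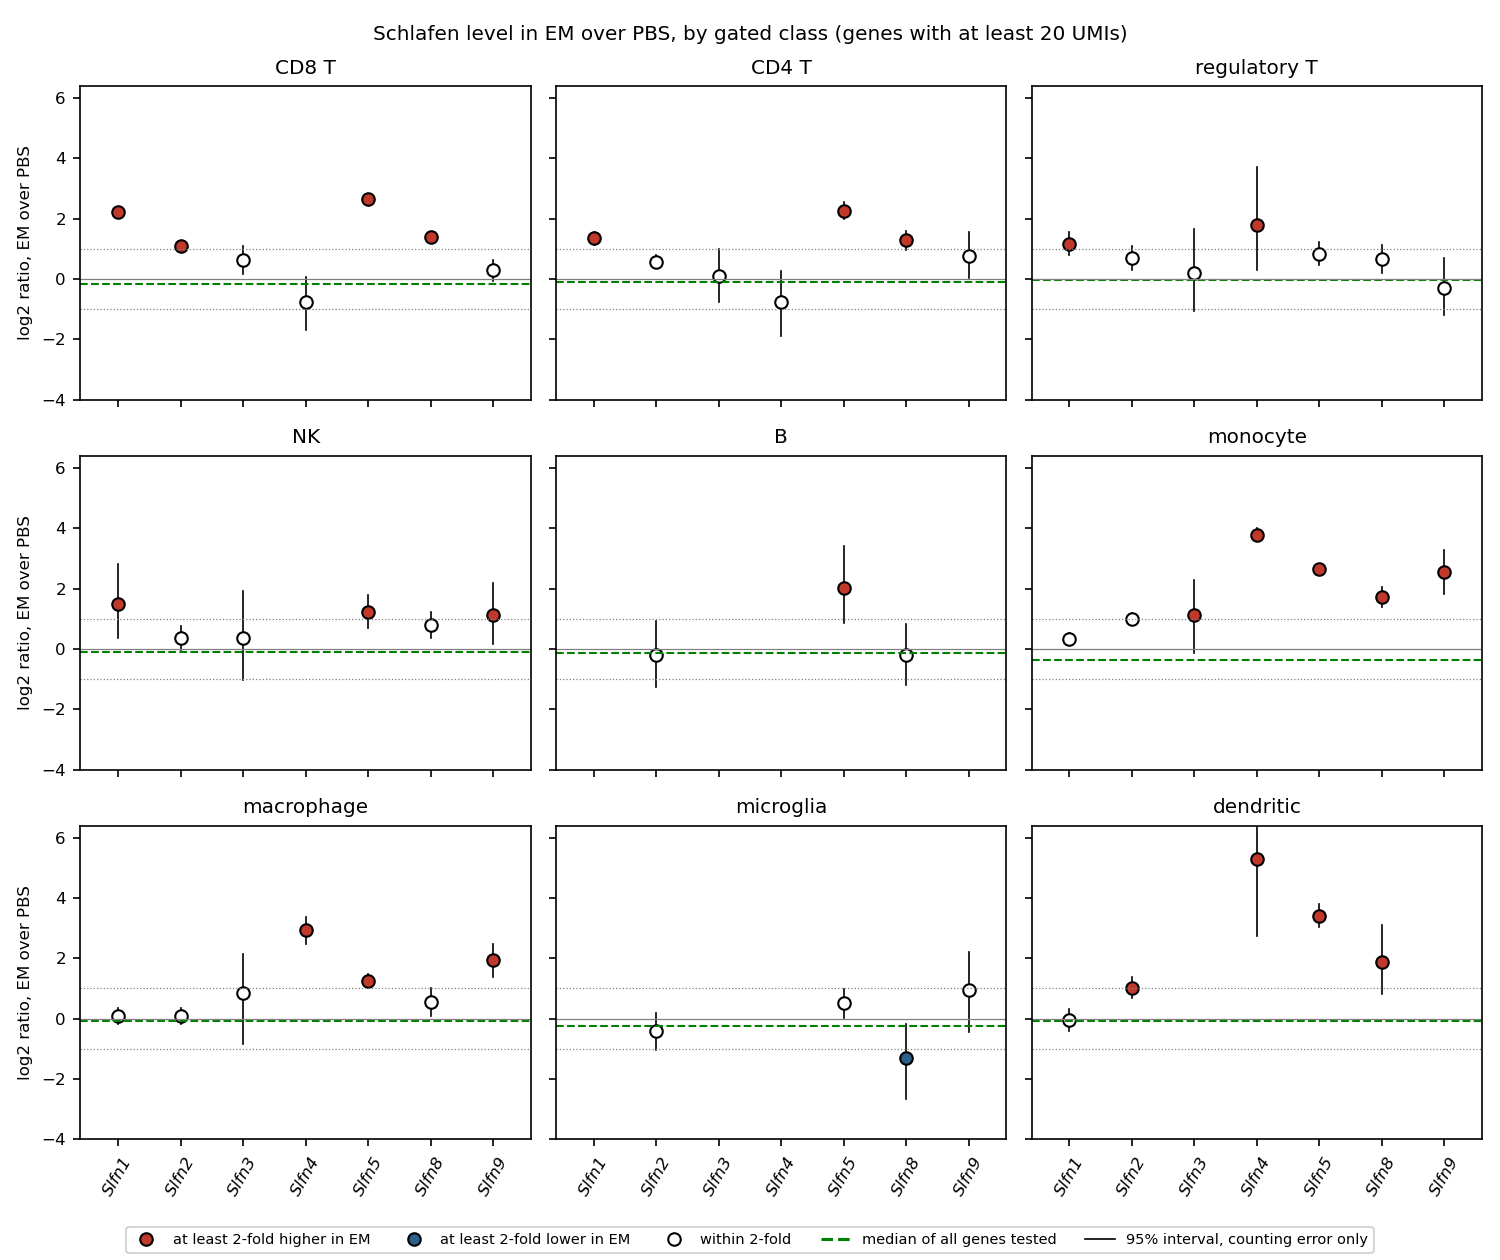
Log2 ratio of each Schlafen gene in EM over PBS, 1 panel per gated class, with 95% counting intervals; filled points are past 2-fold, the dashed line is the median of all genes tested, and members with fewer than 20 UMIs are left out. The bar of Slfn4 in dendritic cells runs past the axis. In CD8 and CD4 T cells the points of Slfn1, Slfn5 and Slfn8 stand highest, and in monocytes those of Slfn4, Slfn5 and Slfn9.

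The scale of these ratios is set by the total RNA of each class. The median log2 ratio over all genes tested was -0.36 in monocytes, -0.24 in microglia and between -0.17 and -0.04 in the other 7 classes. The median over the tested members was 1.11 in CD8 T cells, 0.77 in CD4 T cells, 0.69 in regulatory T cells, 0.94 in NK cells, -0.20 in B cells, 1.71 in monocytes, 0.85 in macrophages, 0.05 in microglia and 1.89 in dendritic cells.

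The link of the family to resting cells was followed within T cells. Cells with at least 3 of the cycling markers (Mki67, Top2a and others) numbered 417 in EM and 628 in PBS. Slfn5 had the largest ratio of the 7, at 214 CPM in T cells not cycling against 28.6 CPM in cycling T cells of EM (log2 ratio 2.90, 2.51 to 3.32), and at 39.4 against 4.85 CPM in the same states of PBS (3.02, 2.49 to 3.6). In EM, 2 of 7 members were higher in T cells not cycling (Slfn4 and Slfn5) and 1 lower (Slfn9), beside 7.95% and 6.78% of all genes. In PBS, 3 were higher (Slfn1, Slfn5 and Slfn8) and 1 lower (Slfn3), beside 10.9% and 6.95% of all genes. The Slfn4 value in EM compares 71 with 4 UMIs, and 21 of the 71 lie in 1 cell.

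The other members moved less with the cell cycle. Slfn1 stood at 282 CPM in T cells not cycling and 166 CPM in cycling T cells of EM (0.76) and at 75.6 and 35.9 CPM in those of PBS (1.07). Slfn2 had ratios of 0.76 in EM and 0.98 in PBS, and Slfn8 of 0.94 in EM and 1.31 in PBS. Slfn9 and Slfn3 went the other way, with cycling T cells higher. Slfn9 stood at 14.8 CPM in T cells not cycling and 33.9 CPM in cycling T cells of EM (-1.20, -1.62 to -0.76) and at 10.5 and 19.7 CPM in those of PBS (-0.92, -1.27 to -0.56). Slfn3 stood at 9.13 and 18.0 CPM in EM (-0.98) and at 4.0 and 12.5 CPM in PBS (-1.64) in T cells not cycling and cycling. Cycling T cells were deeper, with a median of 4112 UMIs against 1974 in T cells not cycling of EM and 8980 against 4081 in those of PBS.

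EM was also set over PBS within each state. In cycling T cells the EM over PBS log2 ratio was 2.56 for Slfn5, 2.21 for Slfn1, 1.56 for Slfn8 and 1.14 for Slfn2. There 4 of 7 members were higher and 0 lower, beside 5.24% and 8.11% of all genes. In T cells not cycling the ratio was 2.44 for Slfn5, 1.90 for Slfn1, 1.19 for Slfn8 and 0.92 for Slfn2. Slfn3 was at 1.19 there (0.72 to 1.68, on 102 and 60 UMIs in EM and PBS). In that state 4 of 7 members were higher and 0 lower, beside 5.49% and 10.6% of all genes. Naive-like T cells, with at least 3 of the naive markers (Tcf7, Lef1 and others), numbered 171 in EM and 173 in PBS. In PBS they stood above the other T cells not cycling for Slfn5, at 158 against 32.8 CPM (2.27, 1.97 to 2.56), and for Slfn1, at 172 against 70.3 CPM (1.29, 1.02 to 1.55). In EM the same ratios were 0.55 for Slfn5 (307 against 210 CPM) and 0.13 for Slfn1 (307 against 281 CPM). Within naive-like T cells the EM over PBS log2 ratio was 0.96 for Slfn5, 0.84 for Slfn1, 0.42 for Slfn8 and 0.35 for Slfn2. There 0 of 5 tested members were higher and 0 lower, beside 4.48% and 8.97% of all genes. Exhausted-like CD8 T cells, marked by inhibitory receptors, numbered 172 in EM and 1221 in PBS. A cell needed at least 3 of the markers, so these numbers can depend on depth. The median was 3532.5 UMIs against 2040.5 in other CD8 T cells of EM, and 4960 against 3787 in PBS. Slfn5 of the exhausted-like cells stood at 82.9 CPM against 150 CPM in other CD8 T cells of EM (-0.85, -1.28 to -0.46), and at 10.6 against 33.0 CPM in those of PBS (-1.64, -2.07 to -1.23). In EM 0 of 6 members were higher and 0 lower in exhausted-like cells, beside 3.51% and 6.37% of all genes. In PBS 0 of 7 were higher and 1 lower, beside 2.25% and 2.28%. Within exhausted-like CD8 T cells the EM over PBS log2 ratio was 2.97 for Slfn5, 1.97 for Slfn1, 1.24 for Slfn9 and 1.13 for Slfn8. Slfn3 was at 1.47 (-0.13 to 2.82) and Slfn2 at 0.58. There 5 of 7 members were higher and 0 lower, beside 4.74% and 13.3% of all genes.

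**Figure D5:**
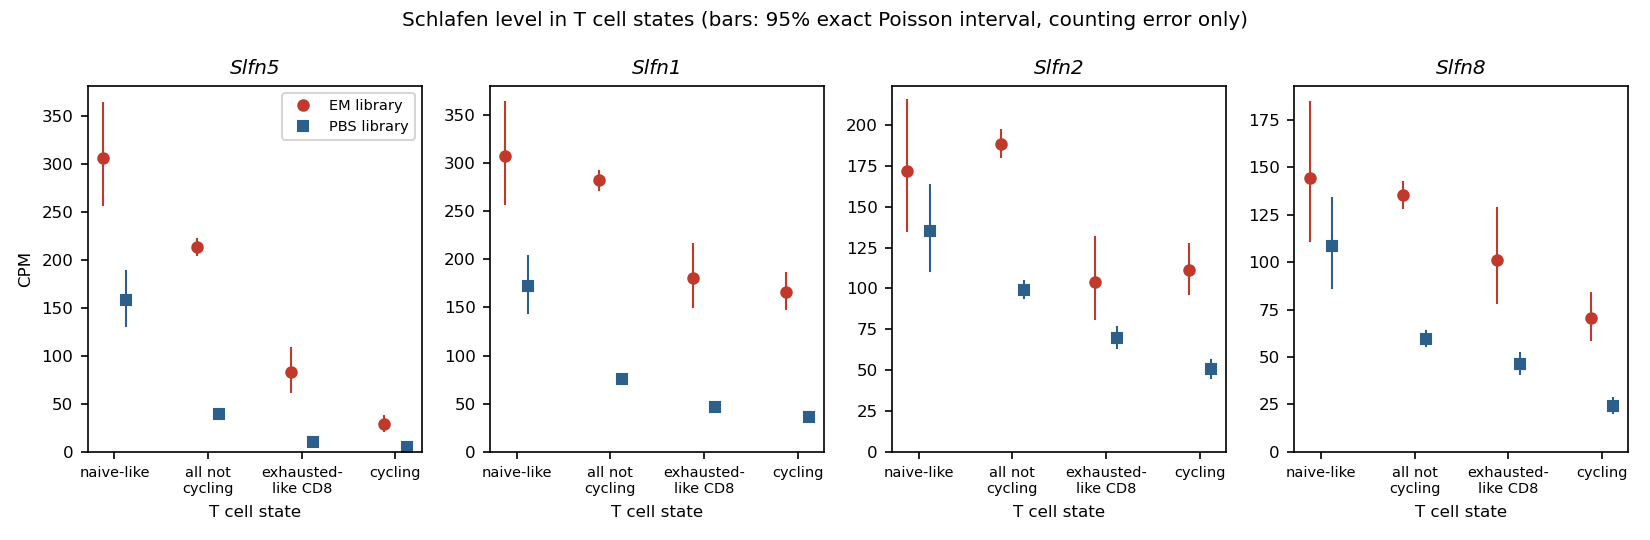
Level (CPM) of Slfn5, Slfn1, Slfn2 and Slfn8 in naive-like T cells, all T cells not cycling (which include the naive-like cells), exhausted-like CD8 T cells and cycling T cells, EM as circles left of PBS as squares, with 95% exact Poisson intervals. Slfn5 stands at 214 CPM in EM T cells not cycling and at 28.6 CPM in EM cycling T cells.

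Because several members are known to follow interferon, a list of 34 interferon-induced genes was read in the same classes, and 32 were matched in the matrices. In monocytes 32 of 32 were at least 2-fold higher in EM, with a median log2 ratio of 2.85, in CD8 T cells 30 of 32 with a median of 2.63, and in dendritic cells 28 of 32 with a median of 2.54. The medians were 1.85 in macrophages (25 of 32), 1.47 in microglia (19 of 30 higher and 1 lower) and 0.23 in B cells (3 of 16 higher and 2 lower). Of all genes tested, 7.77%, 4.03%, 7.25%, 12.6%, 10.5% and 9.23% were higher in these classes, in the order named. The shares lower were 26.2% in microglia and 14% in B cells. The Slfn5 ratios in these classes, in the same order, were 2.65, 2.65, 3.40, 1.26, 0.50 and 2.01. In T cells as a whole the highest list ratios were those of Ifi44 (5.03) and Oas2 (4.87), an antiviral enzyme, and the lowest named here that of Ifit2 (0.78). In monocytes and macrophages together the highest were Isg20 (5.66) and Ifit3b (5.07) and Stat2 stood at 1.15. Monocytes held 558694 of the 1195221 UMIs of this pooled class in EM and 1864994 of 15408336 in PBS. The part of this unlike mix in the pooled ratios was not tested. Slfn5 had 2.67 in all T cells and 2.56 in monocytes and macrophages together, or 1.70 there with equal weight per cell.

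The list of genes tied to T cell quiescence and recirculation had 5 of 18 members higher and 1 lower in EM T cells, with a median log2 ratio of 0.61, beside 5.33% and 11.2% of all genes tested and their median of -0.12. Klf2, a factor of resting T cells, stood at 253 CPM in EM and 42.0 CPM in PBS (2.59), while Ccr7 was at -0.50 and Btg2, an antiproliferative gene, at -1.18. In monocytes and macrophages together this list had 2 of 16 higher, among them S1pr1 at 3.6, and 2 lower (Tob1 at -1.0 and Btg2 at -2.12). The list of monocyte and myeloid suppressor genes had 5 of 14 higher and 5 lower there, with a median of 0.51, beside 7.75% and 18.3% of all genes and their median of -0.20. Ms4a4c (4.12) and Ly6c2 (3.75) were highest and S100a8 (-3.69) and Nos2 (-5.53), the enzyme of nitric oxide, lowest. The pooled values of both lists carry the unlike mix of monocytes and macrophages given above, and its part was not tested. Taken apart, Ly6c2 stood at 4702 and 924 CPM in EM and PBS monocytes. It stood at 459 and 75.5 CPM in EM and PBS macrophages. In T cells the same list had 5 of 14 higher and 6 lower. Among its genes that reached 10 CPM in either library, Ly6c2 (2.13) and Ms4a4c (2.05) were highest and Il1b (-2.20) and Chil3 (-4.68) lowest. Ly6c2, Ms4a4c and Chil3 are also among the markers that gate monocytes. Of the further Schlafen genes, Slfn14 had 0 UMIs in EM and 7 in PBS, and Slfnl1 had 1 UMI in each library. Slfn10-ps was not matched by symbol and is not analysed here.

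Patterns were compared among 7032 genes over 23 points, each of them a class of 50 or more cells in one library. These correlations describe points that share libraries, depth and cells of related kinds, and carry no test. The genes most like Slfn4 were Cd177, Hp and Mmp8, genes of granulocytes (Pearson r 0.903, 0.896 and 0.895). The genes most like Slfn5 were Trim30d (0.874), Irf7 (0.872) and Stat2 (0.854), and the one most like Slfn8 was Parp14 (0.887), before Mitd1 (0.805) and Sp100 (0.781). Slfn2 was most like Myd88 (0.865), Hcls1 (0.831) and Ap1s2 (0.828), and Slfn1 most like Sem1 (0.818), Ifi47 (0.790) and Cdk2ap2 (0.770). Slfn3 was most like Ifit1 (0.797), Igtp (0.785) and Lmnb1 (0.765), and Slfn9 most like Rab5if (0.808), Tmem33 (0.738) and Nfic (0.721). Among the members the closest pair was Slfn2 and Slfn3 (0.773), followed by Slfn1 and Slfn2 (0.717), the short forms. The most distant was Slfn2 and Slfn9 (0.058), and the adjoining genes Slfn8 and Slfn9 had 0.122.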

How the data were processed

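The members and lists were chosen with earlier results of these data known. The authors deposited raw counts of UMIs per gene and cell as a matrix for each library; base calling with CASAVA 1.8, STARsolo and the mm10 build come from the submitters' processing notes. Replicates are 1 library per group, so no test was made. The cell filter required 200 genes and 500 UMIs, with a mitochondrial share no higher than 20%. A class needed at least 2 of its markers and the largest share of its markers detected. That share had to be 1.5 times that of any class outside its group. Classes within a group were split by the larger share alone, with no lead. The groups were T with NK cells, B with plasma cells, monocytes and macrophages with microglia and dendritic cells, and neutrophils with eosinophil-like cells. The remaining classes stood alone. Doublets were left in except in an alternative that removed the 6% of cells with the highest scores. Counts were summed per class and divided by the summed UMIs. Intervals are 95% exact Poisson for levels and conditional binomial for ratios, and a member was called at 2-fold with at least 20 UMIs over both sides. A count of 0 was read as a limit of 3 counts. Pattern likeness used log2(CPM + 10). Named genes were all 7 members, the 3 genes most like each, and the 2 highest and 2 lowest of each list, some of which are not reported here. Alternatives were a stricter gate, 30 Leiden clusters (resolution 1.5), equal weight per cell, thinning to 1000 UMIs with shallower cells left out, other filters and limits. Gene positions are from GENCODE M21, where 31107 of 31253 identifiers were found, and promoters from RefSeq. Python 3.11.15, NumPy 2.4.6, SciPy 1.17.1, pandas 2.3.3, scanpy 1.11.5, leidenalg 0.10.2, scikit-learn 1.9.0 and matplotlib 3.10.9 were used.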

Additional observations from a re-analysis of the deposited data

Results flagged for a closer look

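Slfn8 had log2 ratios of EM over PBS of 1.41 in CD8 T cells, 1.28 in CD4 T cells, 1.71 in monocytes and 1.89 in dendritic cells, and of -1.29 in microglia. It stands here because the classes went opposite ways past 2-fold. The difference between the classes was not tested, and the EM microglia value rests on 7 UMIs.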

How the results depend on the processing

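Of 42 member ratios past 2-fold between lineages or between EM and PBS within a class, 26 stayed past it in every alternative run, and 381 of 384 alternative values kept their sign. The 3 that reversed did so with cells thinned to 1000 UMIs: Slfn4 in regulatory T cells (-0.10), Slfn3 in monocytes (-0.74) and Slfn8 in dendritic cells (-0.097). The cause was not tested. Thinning also gave 1 member lower in CD8 T cells, 0 higher in regulatory T cells, 0 lower in microglia and 1 higher in dendritic cells. The stricter gate gave 1 member higher in regulatory T cells and 2 in dendritic cells. Leiden classes gave 1 lower in CD8 T cells and 1 higher in each of regulatory T cells, NK cells and macrophages, and no value for microglia. Equal weight per cell gave 1 higher in regulatory T cells, and 1 higher and 0 lower in microglia. With the other lineage subtracted, 1 member was lower in CD8 and 1 in CD4 T cells. With doublets removed, 1 was higher in regulatory T cells. A 1.5-fold limit gave 1 lower in CD8 and 1 in CD4 T cells, 5 higher in regulatory T cells and 1 higher in microglia. A 3-fold limit gave 2 higher in CD8 T cells, 1 in CD4 T cells, 1 in regulatory T cells and 0 in NK cells, and 0 lower in microglia. With no minimum on UMIs, 1 was lower in NK cells, 1 lower in B cells and 1 higher in microglia. Dropping Bst2, Ly6c2 and Ms4a4c from the gate, chosen after seeing the data, gave 1 higher in microglia. The other counts stayed within 1.5 times. The comparisons between T cell states were run under 1 setting. No paired analysis was possible because each group has 1 library. Depth limits the members with few UMIs: 3 of 7 reached 20 UMIs in B cells and 4 of 7 in microglia.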
